A study of Mus musculus with 4 samples.

Results

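L2, CR1, RTE and MIR are 4 of the 47 repeat families in a table of nanoCAGE read counts from mouse oocytes and pre-implantation embryos. They were taken by name, as the rows called L2, CR1, RTE and MIR, and not by their values. All 4 had counts in every run, from 11 counts of RTE in blastocyst run 1.2 to 20511 of MIR in oocyte run 1.2. The samples were fully grown oocytes, and embryos at the 2-cell (48 h), 8-cell (68 h) and blastocyst (92 h) stages, all labelled F1 (C57BL/6J X CBA/H) crosses, with no treatment or allele named. NanoCAGE is designed to read the 5′ ends of capped RNA from small amounts of total RNA. Ribosomal and transfer RNA were counted as well, so a count need not mark a capped start. Each stage is 1 sample, sequenced in runs 1.1, 1.2 and 2 (runs 1 and 2 at the 2-cell stage), and nothing in the labels shows whether the runs go back to separate pools. Runs were therefore treated as repeat runs of 1 sample, the spread between them may be technical, and no p-value was computed. The table lists repeats and no genes, so the stage labels could not be checked against marker genes.

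L2, CR1 and RTE are long interspersed elements (LINEs), which once copied themselves through an RNA and their own reverse transcriptase. MIR is a short interspersed element derived from a transfer RNA, which codes for no protein and was copied by the machinery of L2. All spread in early mammals or their ancestors, and the copies left in the mouse genome are short, diverged and unable to move. RNA over such copies can begin at a host promoter, in a neighbouring element or in a transcript that reads through, and some L2 and MIR copies are known to act as enhancers or promoters. L1, the younger LINE of the mouse, and B1 (listed as Alu), B2 and B4, its rodent-specific partners, serve here as the younger relatives. Rows count whole families and are not split by age of copies, so L1 and other families called younger may include old copies. From which of these kinds of transcript the counts came was not tested.

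Run totals ran from 36922 to 1919263 counts. Ribosomal RNA (rRNA), which enters the total, was lowest in 8-cell run 1.1, at 0.807%, and highest in oocyte run 1.1, at 44.9%. Shares are therefore given both of all repeat counts in a run and of the counts of the 34 transposon families alone (LINE, SINE, LTR and DNA transposon families). Read names put oocyte runs 1.1 and 2 with blastocyst run 1.2 in 1 sequencing run, oocyte run 1.2 with 8-cell run 1.2 in another, and 2-cell run 2 with 8-cell run 2 in a further one. The median score of read placements, whose scale is not stated, was 50, 53 and 35 for oocyte runs 1.1, 1.2 and 2. It was 24 and 43 for the 2-cell embryo, 16, 28 and 54 for the 8-cell embryo, and 16, 32 and 15 for the blastocyst. Its part in the results was not tested. A family is said to rise or fall where its stage means differ by a factor of 2 or more and the runs of the stages do not overlap.

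L2 was low in the oocyte and higher in every embryo run. Oocyte runs 1.1, 1.2 and 2 gave it 0.896%, 0.495% and 0.516% of all repeat counts. The 2-cell embryo gave 2.12% (run 1) and 1.96% (run 2). The 8-cell embryo gave 2.26%, 2.66% and 1.22%, and the blastocyst 1.77%, 1.62% and 4.09%, both in the run order of the oocyte, which is kept below. Even the lowest embryo value, that of 8-cell run 2, lay above the highest oocyte value, that of run 1.1, and their exact 95% intervals (1.196% to 1.23% and 0.871% to 0.920%) did not touch. These intervals speak to counting error at most, not to the spread between runs, and treat each count as an independent read. Copies made by amplification were not told apart by molecular identifiers, and oocyte run 1.1 held 2.07 counts per read placement. The intervals may therefore be too narrow. Within the embryo the L2 runs of all 3 stages overlapped, and the means were 2.04% (2-cell), 2.05% (8-cell) and 2.49% (blastocyst). B2, B4 and Alu were also higher in every embryo run than in any oocyte run, as given below.

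MIR varied least of the 4 over the 11 runs, between 0.967% and 2.05%. Its share of all repeat counts in the oocyte was 0.979%, 1.07% and 1.13%. The 2-cell embryo gave 1.88% and 1.13%, the 8-cell embryo 1.62%, 1.27% and 1.14%, and the blastocyst 1.70%, 0.967% and 2.05%. Stage means lay between 1.06% in the oocyte and 1.57% in the blastocyst, a range of 1.49-fold. For L2 the same range was 3.92-fold, and its median over the 35 families that had at least 100 counts and none at 0 was 3.15-fold. Within the oocyte the highest MIR run was 1.15 times the lowest, where the median of these families was 3.73.

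CR1, whose mammalian copies are mostly those known as L3, showed no order of stages. Oocyte runs gave 0.0757%, 0.241% and 0.374% of all counts, and 2-cell runs 0.306% and 0.110%. The 8-cell embryo gave 0.170%, 0.219% and 0.236%, and the blastocyst 0.270%, 0.0542% and 0.249%. The 4 stage means lay between 0.191% and 0.230%, a range of 1.21-fold, while runs of the same stage differed by up to 4.98-fold. Neighbours in the order of means (blastocyst, 8-cell, 2-cell, oocyte) overlapped at each step. Its lowest values, in oocyte run 1.1 and blastocyst run 1.2, came from the same sequencing run, as did its highest, in oocyte run 2.

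RTE, the rarest of the 4, was highest in a pair of oocyte runs. Oocyte runs gave 0.0188%, 0.0931% and 0.203% of all counts, so that run 2 was 10.8 times run 1.1. The 2-cell embryo gave 0.0728% and 0.0521%, the 8-cell embryo 0.0349%, 0.0412% and 0.0135%, and the blastocyst 0.0771%, 0.0298% and 0.0564%. Oocyte run 1.1 lay below both 2-cell runs, whereas oocyte runs 1.2 and 2 lay above every embryo run. Few counts stand behind the later values. The 11 counts of blastocyst run 1.2 have an exact 95% interval of 0.0149% to 0.0533%, and the 17 counts of 8-cell run 1.1 one of 0.0203% to 0.0559%.

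**Figure D1:**
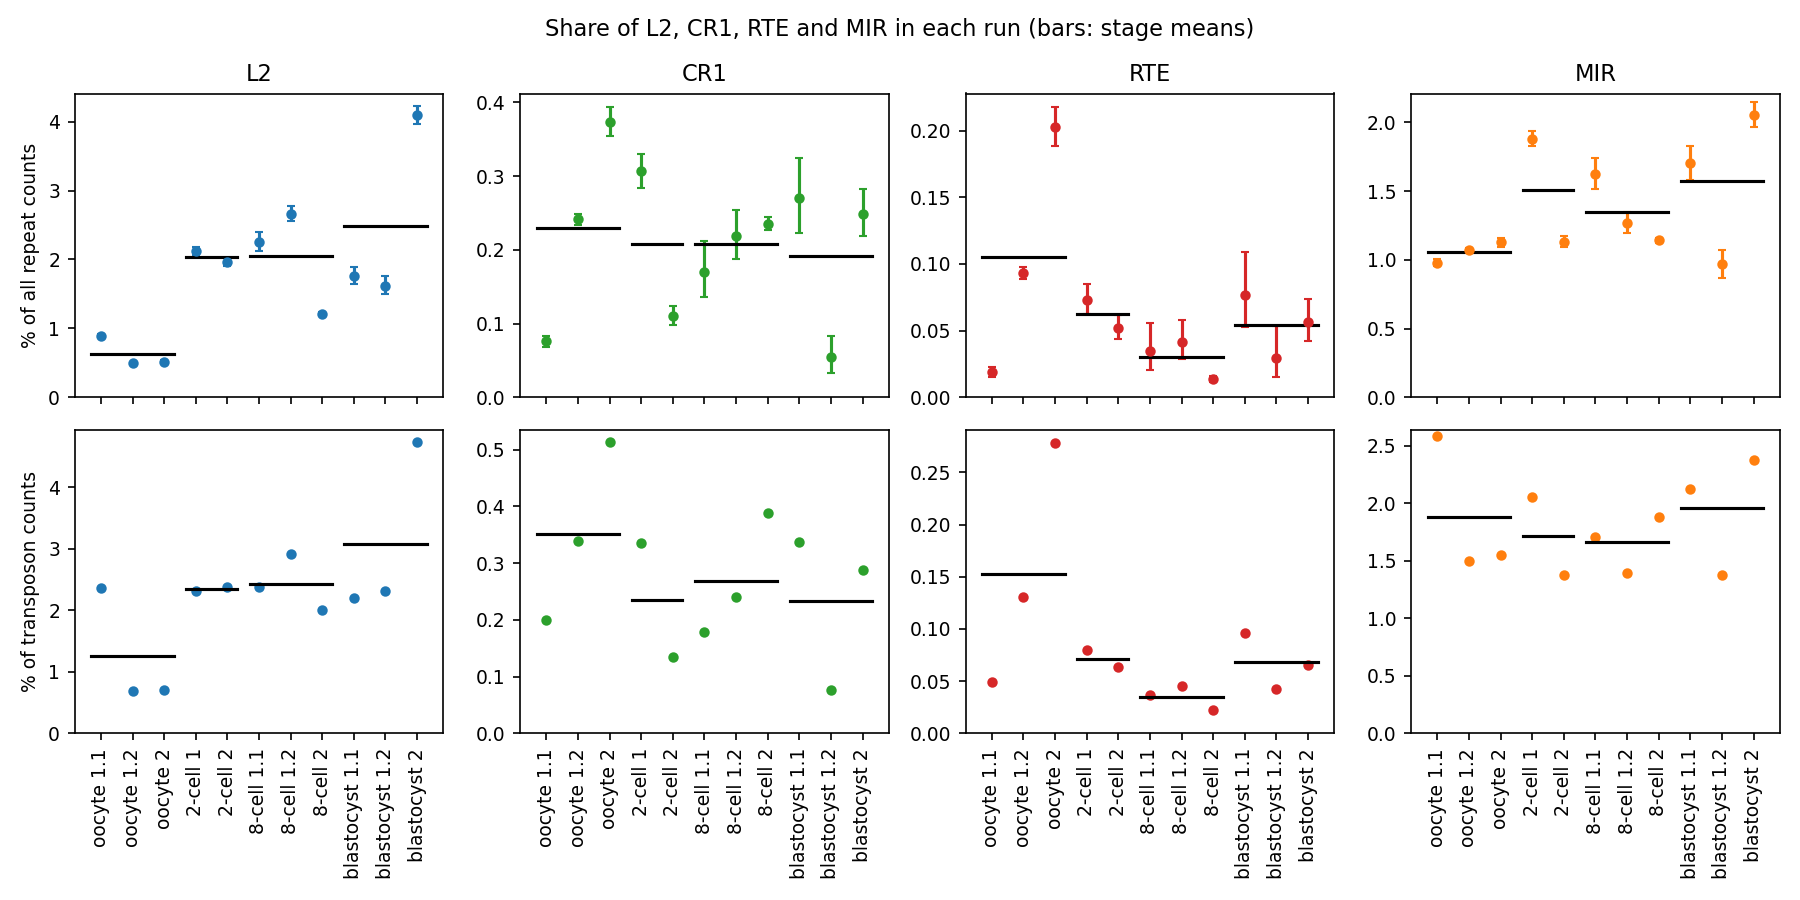
Shares of L2, CR1, RTE and MIR in the 11 runs, in percent of all repeat counts (upper row, with exact 95% intervals for counting error) and in percent of the counts of transposon families (lower row). Points are runs and black bars are stage means; in the upper row all 8 embryo runs of L2 lie above the 3 oocyte runs, and in the lower row oocyte run 1.1, at 2.36%, lies among the embryo runs.

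As a share of transposon counts the same families gave another picture of the oocyte. For L2 the oocyte gave 2.36% (run 1.1), 0.695% (run 1.2) and 0.708% (run 2). The 2-cell embryo gave 2.31% and 2.38%, the 8-cell embryo 2.37%, 2.92% and 2.00%, and the blastocyst 2.20%, 2.31% and 4.74%. Oocyte run 1.1 thus lay within the embryo values on this scale, and oocyte runs 1.2 and 2 at about a common level below all of them. For MIR the oocyte gave 2.58%, 1.502% and 1.55%, the 2-cell embryo 2.05% and 1.38%, the 8-cell embryo 1.71%, 1.39% and 1.88%, and the blastocyst 2.12%, 1.38% and 2.38%. Its 4 stage means, between 1.66% and 1.96%, ranged over 1.18-fold, and neighbouring stages in their order overlapped each time. RTE had 0.0496%, 0.131% and 0.278% of transposon counts in the oocyte, with later runs between 0.0223% and 0.0961%. CR1 had 0.199%, 0.339% and 0.513% there, with later runs between 0.0772% and 0.389%.

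Summed over the 4 families, shares of all counts in the oocyte were 1.97%, 1.90% and 2.22%. The 2-cell embryo gave 4.38% and 3.26%, the 8-cell embryo 4.09%, 4.19% and 2.61%, and the blastocyst 3.81%, 2.67% and 6.45%. Every embryo run lay above every oocyte run. That held for B2, B4 and Alu too, whose highest oocyte runs had 3.01%, 2.91% and 2.67%. Their lowest embryo runs had 3.94%, 5.17% and 2.76%. L1 overlapped, with 10.8% in an oocyte run and 9.47% in an 8-cell run, as did ID, ERV1, ERVK, ERVL and MaLR. The share of all families so separated was not computed. Of transposon counts, however, the sum of the 4 was 5.19%, 2.67% and 3.05% in the oocyte and 4.78% and 3.96% in the 2-cell embryo. The 8-cell embryo gave 4.30%, 4.60% and 4.30%, and the blastocyst 4.76%, 3.81% and 7.47%. The 8-cell runs differed by only 1.07-fold here, against 1.61-fold as a share of all counts. 8-cell run 2, the low one on the first scale, had 26.5% rRNA against 0.807% and 3.81% in runs 1.1 and 1.2. Other rows outside the transposon families varied too, with simple repeats at 2.07% to 6.87% over the 8-cell runs. The part of these rows in the difference between the scales was not tested. Fewer RNA molecules of these families and more of others cannot be told apart in such shares.

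Between oocyte and 2-cell embryo lie fertilisation and the activation of the embryo's genome. L2 rose from a mean of 0.635% of all counts (range of runs 0.495% to 0.896%) to 2.04% (1.96% and 2.12%), a ratio of 3.21. MIR had means of 1.06% and 1.51%, a ratio of 1.42. Its 2-cell runs lay above the oocyte runs, as did those of 38.3% of the 47 families, but the 2-fold limit was missed. CR1 (ratio 0.905) and RTE (ratio 0.596) had overlapping runs. Without 2-cell run 1 the ratio of CR1 was 0.480 and without 2-cell run 2 it was 1.33, and that of RTE was 1.12 without oocyte run 2. So 1 of the 4 rose and none fell, while 31.9% of the 47 families rose and 8.51% fell, and the share of the members that rose is near that background. The sum of the 4 had a ratio of 1.88 with separated runs, and passed the limit without 2-cell run 2 (2.16). Without oocyte run 1.1 RTE fell, with a ratio of 0.423, and the share of all families that pass without this run was not computed.

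Among transposon counts none of the 4 passed in this step, where 20.6% of the 34 families rose and 2.94% fell. L2 had 1.25% and 2.35%, a ratio of 1.87 with overlapping runs, and the ratio of MIR was 0.914, that of CR1 0.669 and that of RTE 0.468. This rests on oocyte run 1.1. Without it, an alternative chosen after seeing the data, L2 rose from 0.702% to 2.35% of transposon counts (ratio 3.35), and RTE fell from 0.205% to 0.0715% (2.86-fold). MIR then had a ratio of 1.12 and CR1 one of 0.550, and neither passed. The share of the 34 families that pass without this run was not computed, and fewer runs separate more easily. MaLR, the LTR family of the MT and ORR1 elements and the largest transposon family of the oocyte by mean share, fell from 45.9% to 18.6% of transposon counts in the same step. Its part in the shares of the 4 families was not tested.

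The choice of scale moved all families. The median log2 ratio of the 38 families holding 100 counts or more in these stages was 0.52 for shares of all counts and -0.15 with counts scaled by size factors. That of the 25 transposon families was 0.24 for shares of transposon counts. L2 stood above the median by 1.16, 0.94 and 0.67 in this order (log2). MIR stood at -0.01, -0.10 and -0.37 relative to it, CR1 at -0.66, -0.55 and -0.82, and RTE at -1.27, -1.01 and -1.33. On all 3 scales L2 therefore lay above the median family in this step, and the other members lay at or below it.

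From the 2-cell to the 8-cell stage L2, MIR and CR1 did not pass the rule. L2 had 2.04% and 2.05% of all counts, MIR 1.51% and 1.35%, and CR1 0.208% at both stages, each with overlapping runs. The equal means of CR1 rest on both 2-cell runs, since its ratio of 0.999 became 1.89 without 2-cell run 1 and 0.680 without 2-cell run 2. RTE fell from 0.0625% (0.0521% and 0.0728%) to 0.0299% (0.0135% to 0.0412%), 2.09-fold. Across all 47 families 8.51% fell and 2.13% rose. Among transposon counts, where 8.82% of families fell and 0% rose, the fall of RTE was 2.06-fold. With size factors its ratio was 0.539, which did not pass. The fall rests on 297 counts from 2-cell embryos and 219 from 8-cell embryos, 169 of the latter in run 2. Without 8-cell run 2 it was 1.64-fold, without 2-cell run 1 it was 1.75-fold, and neither passed. In the sequencing run shared by 2-cell run 2 and 8-cell run 2, RTE had 0.0521% and 0.0135%, a 3.86-fold difference, while L2 had 1.96% and 1.22%, CR1 0.110% and 0.236%, and MIR 1.13% and 1.14%.

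From the 8-cell stage to the blastocyst none of the 4 passed the rule on either scale. In this step 8.51% of the 47 families rose and 4.26% fell, and of the 34 transposon families 11.8% rose and 0% fell. The ratios of all counts were 1.22 for L2, 1.17 for MIR, 0.917 for CR1 and 1.82 for RTE, all with overlapping runs. Without blastocyst run 1.2 RTE rose, with a ratio of 2.23, and without blastocyst run 2 the ratio of L2 was 0.827. With the counts of a stage pooled, so that deep runs weigh more, ratios were 2.25 for L2, 3.51 for RTE and 1.82 for the sum of the 4. None passed, since runs overlap, and the sum also stayed under the 2-fold limit. Blastocyst run 2 had the highest L2 and the highest MIR of all 11 runs as a share of all counts, and its L2 share was 2.53 times that of blastocyst run 1.2.

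When the oocyte was set against the blastocyst, L2 rose from 0.635% to 2.49% of all counts (1.62% to 4.09%), a ratio of 3.92, and the sum of the 4 rose from 2.03% to 4.31%, a ratio of 2.13. MIR had a ratio of 1.49, CR1 one of 0.829 and RTE one of 0.519, each with overlapping runs. 1 of the 4 families rose, where 27.7% of the 47 rose and 6.38% fell. Among transposon counts 26.5% of the 34 rose and 2.94% fell, and no member passed. There L2 had 1.25% and 3.08%, a ratio of 2.46 with oocyte run 1.1 above blastocyst runs 1.1 and 1.2, and without oocyte run 1.1 it rose 4.39-fold. RTE fell 3.01-fold on that scale without oocyte run 1.1, and on the scale of all counts without that run its ratio was 0.368. The share of all families that pass without that run was not computed. The sum did not pass without blastocyst run 2 (1.60), among transposon counts (1.47), without rRNA (1.77), with size factors (1.28) or within the sequencing run shared by both stages (1.27). With size factors the ratio of L2 was 2.14 and its runs overlapped.

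As a share of all counts, L2 was lower in the oocyte than in the embryo within both sequencing runs that held an oocyte run and an embryo run. In the sequencing run of oocyte runs 1.1 and 2 and blastocyst run 1.2, L2 had a mean of 0.706% and then 1.62% of all counts, a ratio of 2.30, and 1.53% and 2.31% of transposon counts, a ratio of 1.504. On the latter scale the 2 oocyte runs did not lie on the same side of the blastocyst run, since run 1.1 had 2.36% and run 2 had 0.708%. The other members had ratios of 0.917 (MIR), 0.241 (CR1) and 0.269 (RTE) for all counts in this sequencing run. Those of CR1 and RTE were further from 1 than over all runs, and that of MIR lay in the other direction. RTE had 0.0188% and 0.203% in oocyte runs 1.1 and 2, on either side of the 0.0298% (11 counts) of blastocyst run 1.2. CR1 had 0.0757% and 0.374%, against 0.0542% (20 counts), so both low ratios rest mainly on oocyte run 2. In the sequencing run of oocyte run 1.2 and 8-cell run 1.2, L2 had 0.495% and 2.66%, a ratio of 5.38. Of transposon counts it had 0.695% and 2.92%, a ratio of 4.20. In this last pair MIR had a ratio of 1.19, CR1 of 0.907 and RTE of 0.443 for all counts. No sequencing run held the oocyte and the 2-cell embryo, so effects of stage and of sequencing run cannot be told apart there.

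**Figure D2:**
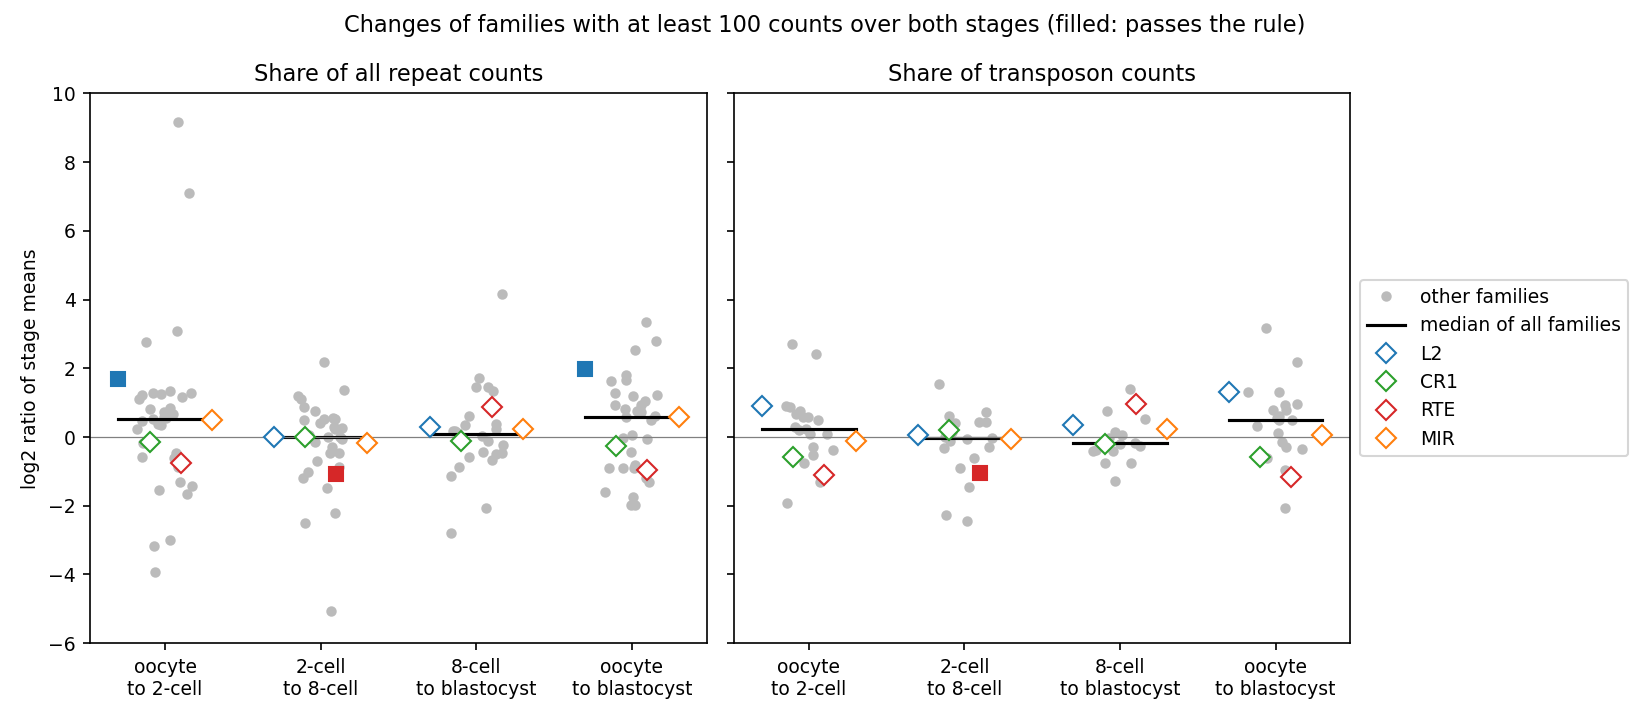
Log2 ratio of stage means (second stage over first) for families holding 100 counts or more in the compared stages, by share of all repeat counts (left) and of transposon counts (right). Grey points are other families, black bars the median of all, coloured symbols the 4 families, filled where the rule was passed; L2 is filled from oocyte to 2-cell and from oocyte to blastocyst on the left only, and RTE from 2-cell to 8-cell on both sides.

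Other groups in the table give these changes their setting. Of 9 younger families (L1, Alu, B2, B4, ID, ERV1, ERVK, ERVL and MaLR) 4 rose from oocyte to 2-cell as a share of all counts, namely L1, B2, B4 and ERVL, and none fell, beside the 31.9% of all 47 that rose. Among transposon counts 1 of the 9 rose (ERVL) and 1 fell (MaLR), and with size factors also 1 rose and 1 fell. Of all families with at least 100 counts, 1 of 25 rose and 1 fell among transposon counts. With size factors 3 of 38 rose and 6 fell. As a share of all counts the median ratio of the 9 younger families was 1.76, against 1.13 for the 4 old families and 1.43 for the 38 families with at least 100 counts. Of the 15 families of DNA transposons, mostly cut-and-paste elements and immobile in the mouse, 5 rose and none fell, again near 31.9%. Of the 10 with at least 100 counts 2 rose (MER1_type and Mariner), and their median ratio was 1.85. Among transposon counts none of these 10 passed. With size factors none rose and 1 fell, beside the 3 and 6 of all 38 families. On the scale of transposon counts these medians were 0.782 for the old families, 1.22 for the younger and 1.30 for the DNA transposons. From oocyte to blastocyst they were 0.835, 1.41 and 1.62 on that scale. As a sum, DNA transposons held 1.29% of all oocyte counts, and 2.65%, 2.62% and 2.42% of those of the 2-cell embryo, 8-cell embryo and blastocyst.

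The make-up of the 4 families, which needs no total, differed between oocyte and embryo. In oocyte runs 1.1, 1.2 and 2, MIR made up 49.7%, 56.3% and 50.8% of their summed counts, and between 30.3% and 44.6% in the 8 embryo runs, so that the runs did not overlap. L2 made up 45.5%, 26.1% and 23.2% in the oocyte and between 46.3% and 63.5% in the embryo, also without overlap, though run 1.1 lay close to the lowest embryo run. MIR and L2 hold most of the same sum, so a larger L2 part goes with a smaller MIR part, and these are not separate results. B2, B4 and Alu also separated the oocyte from all embryo runs, as shares of all counts. How often other families, or parts of other sums, do so was not computed. CR1 and RTE made up 12.7% and 4.90% in oocyte run 1.2 and 16.8% and 9.12% in oocyte run 2. In oocyte run 1.1 they made up 3.84% and 0.956%, values within the range of the embryo runs (2.03% to 9.04% for CR1 and 0.518% to 2.02% for RTE).

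**Figure D3:**
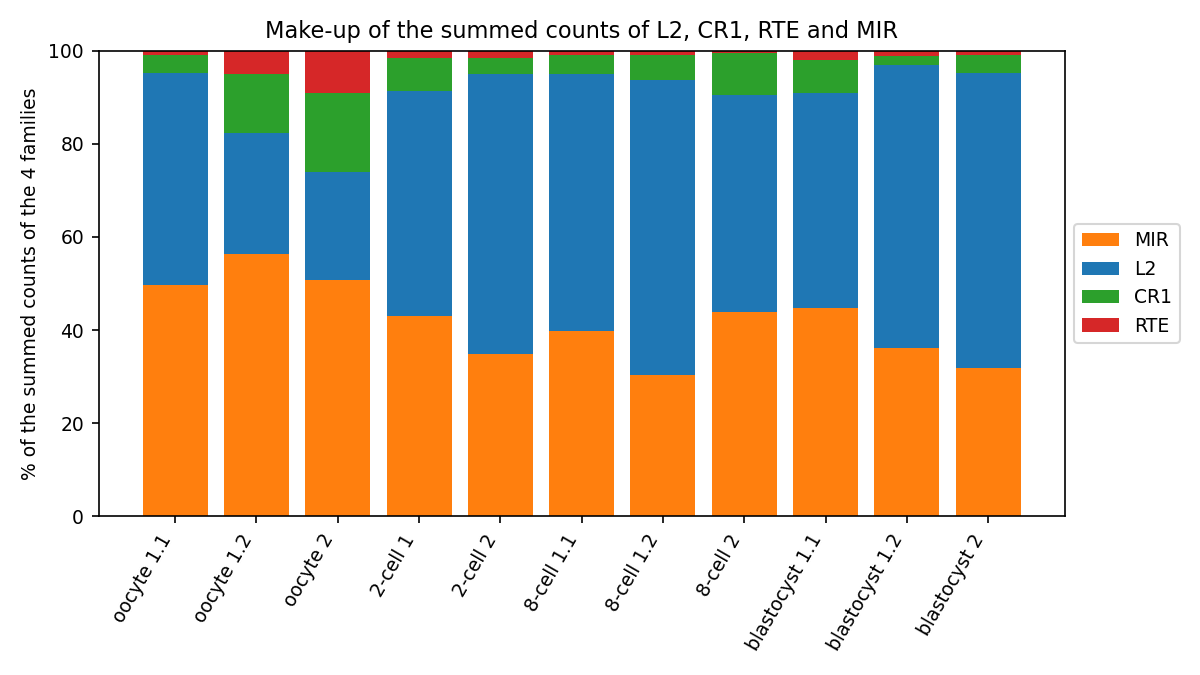
Stacked bars show, for each of the 11 runs, the percent of the summed counts of the 4 families that belong to MIR, L2, CR1 and RTE. The L2 part is smallest in oocyte runs 2 and 1.2 (23.2% and 26.1%), and the RTE part is largest there (9.12% and 4.90%).

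Ratios of MIR to L2 counts within a run restate this make-up and are no further support for it. They compare all counts of a family and are not levels per copy or per base. For each L2 count the oocyte had 1.09 (run 1.1), 2.16 (run 1.2) and 2.19 (run 2) MIR counts. The 2-cell embryo had 0.888 and 0.578, the 8-cell embryo 0.720, 0.477 and 0.939, and the blastocyst 0.965, 0.597 and 0.502. MIR counts thus exceeded L2 counts in every oocyte run and in no embryo run. The mean fell 2.47-fold from oocyte to 2-cell and 2.64-fold from oocyte to blastocyst, and both passed with any 1 run left out. This ratio was chosen after its values were seen. Ratios of 31.6% of pairs of families with at least 100 counts and none at 0 changed by the same rule from oocyte to 2-cell, and 30.4% from oocyte to blastocyst, so such a change was common in the table. Within shared sequencing runs the ratio was 1.64 and 0.597 for oocyte and blastocyst, and 2.16 and 0.477 for oocyte and 8-cell.

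The ratio of L2 to L1, the young LINE, varied between runs and showed no order of stages. For each L1 count the oocyte had 0.0950, 0.0614 and 0.0476 L2 counts and the 2-cell embryo 0.0704 and 0.133. The 8-cell embryo had 0.0711, 0.112 and 0.128, and the blastocyst 0.0473, 0.0551 and 0.127. Stage means lay between 0.0680 in the oocyte and 0.104 at the 8-cell stage, with overlapping runs in all 4 comparisons. Of such pairs of families (at least 100 counts, none at 0), 8.52% changed by the rule from 2-cell to 8-cell and 16.3% from 8-cell to blastocyst. The ratio of L2 to L1 fell from 8-cell to blastocyst, to 0.493 of its 8-cell value, only without blastocyst run 2.

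MIR relative to the rodent SINEs was highest in the oocyte by stage mean. For each B4 count the oocyte had 0.477, 0.367 and 0.398 MIR counts, the 2-cell embryo 0.262 and 0.191, and the 8-cell embryo 0.167, 0.160 and 0.173. Both 2-cell runs lay below the oocyte runs and the 8-cell runs below the 2-cell runs, with ratios of means of 0.547 and 0.736 that stayed under the 2-fold limit. Runs of 35.6% of such pairs were separated in this way, in either direction, from oocyte to 2-cell, and of 12.1% from 2-cell to 8-cell. The blastocyst runs had 0.322, 0.131 and 0.397 and spanned the earlier embryo values. Against B2 the oocyte mean was 0.418 (0.374 to 0.474) and the 2-cell mean 0.269 (0.185 and 0.353), with separated runs under the limit. Against Alu (B1) the means were 0.478, 0.385, 0.394 and 0.383 from oocyte to blastocyst, with overlapping runs throughout. Without 2-cell run 1 the ratios to B2 and B4 passed as falls from oocyte to 2-cell (0.442 and 0.462 of the oocyte value). Without blastocyst run 1.2 both passed as rises from 8-cell to blastocyst (2.03 and 2.16).

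**Figure D4:**
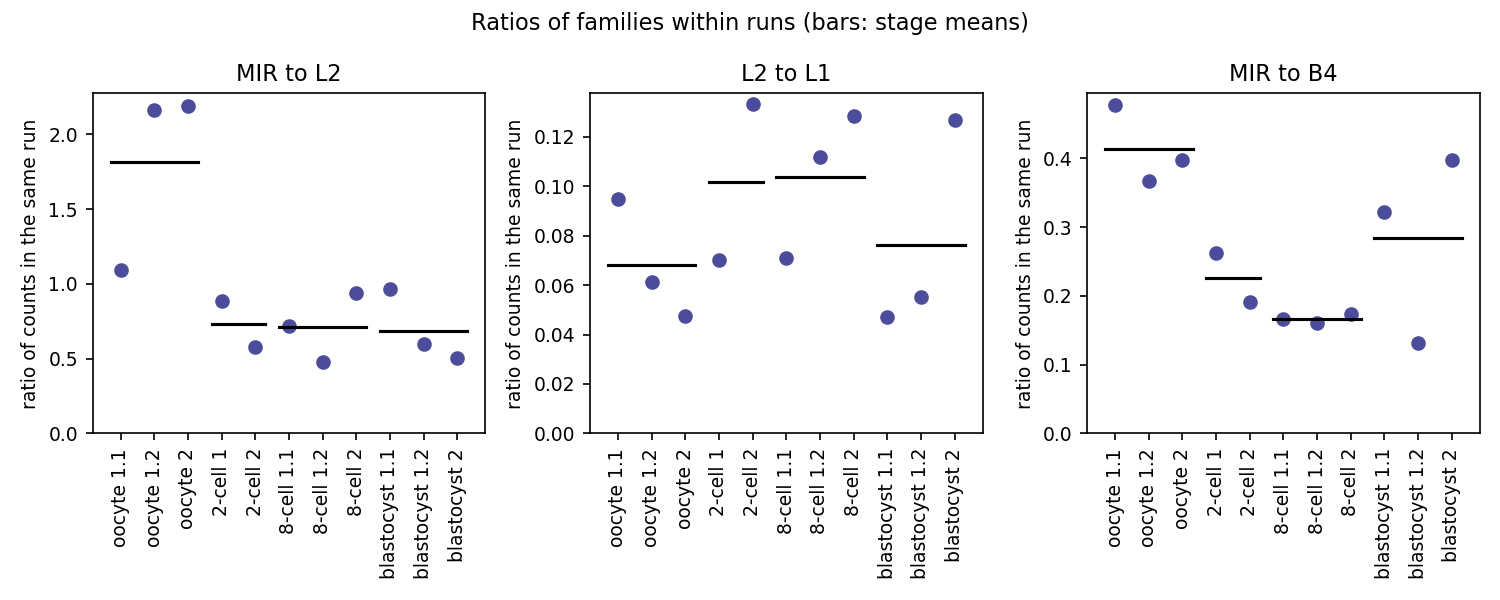
Ratios of counts of a pair of families in the same run, for MIR to L2, L2 to L1 and MIR to B4; points are the 11 runs and black bars stage means. MIR to L2 lies above 1 in the 3 oocyte runs (1.09 to 2.19) and below 1 in the 8 embryo runs, and L2 to L1 overlaps between all stages.

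The 4 families were not equally alike across runs. Likeness was measured as the SD, over the 11 runs, of the log2 ratio of a pair of families, with 0.5 added to each count, so that a small SD means that the pair kept its proportion. The points share libraries and stages, so these SDs are descriptions. L2 was most like L1 (SD 0.58), B4 (0.66) and B2 (0.68), with a median of 1.47 over the 39 other families that had at least 100 counts. MIR was most like Tip100, a DNA transposon family (0.41), then ERVK, the LTR family of IAP elements (0.44), and B2 (0.54), with a median of 1.27. CR1 was most like MIR (0.73), the DNA transposon family MER2_type (0.75) and ERVK (0.78), with a median of 1.34. RTE was most like hAT, another DNA transposon family (0.56), MaLR (0.83) and the family listed as Other (0.89), with a median of 1.41. L2 stood in place 24 of 39 for RTE (1.63) and place 20 for CR1 (1.34), whereas MIR and L2 had an SD of 0.76. CR1 and RTE had one of 0.92 and MIR and RTE one of 1.06, both below the medians of these families.

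hAT, the family most like RTE, had a mean of 0.0485% of all counts in the oocyte (0.00941% to 0.0824%), and then 0.0165%, 0.0103% and 0.0259% from the 2-cell stage on. Like RTE it was lowest at the 8-cell stage and spread widely in the oocyte, by 8.75-fold between runs. Tip100, the family most like MIR, had means between 0.0943% in the oocyte and 0.143% at the 8-cell stage.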

How the data were processed

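Per the file headers, the deposited table holds read counts of repeat families with 1 column per run, and its values are whole numbers with no scaling. The build mm9 and the tool CASAVA are named, without role or version, per the submitters' processing notes. Not given in the sources used here are the repeat annotation and how reads with several placements were counted, and both could move reads between families, old diverged copies included. The read files, 1 per run, gave the sequencing run from read names and the median of the score that the authors deposited per placement. They name no repeat, so no position or sequence of the 4 families is given.

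Shares are percent of the run total or of the 34 transposon families, and stage values are means over runs. Classes of families were assigned from general knowledge of their names, with Genie? left unclassified. The members, lists and comparisons were chosen with earlier results of these data known. The text names the 4 members, the younger and DNA transposon families, and for each member the 3 families with the smallest SD of log2 ratios. Percentages of families called are given as background. Size factors were medians of ratios over the 37 families with counts in every run. Exact (Clopper-Pearson) 95% intervals came from scipy 1.17.1, tables from pandas 2.3.3, and plots from matplotlib 3.10.9.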

Additional observations from a re-analysis of the deposited data

How the results depend on the processing

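No paired analysis was possible because each stage is 1 sample and no test was run. Ratios of stage means for 40 results were recomputed under 360 alternatives. For 324 the side of the rule was kept or, where neither value passed, the log2 ratio moved no further than a limit. This limit was the root of the summed variances of the log2 values of the runs in both stages. It is wide where runs scatter, so this number says little about stability. CR1 from oocyte to 2-cell stayed within it both at 0.480 and at 1.33. Among transposon counts the ratio from oocyte to 2-cell was 1.87 for L2, 0.914 for MIR and 1.202 for the sum of the 4, and with size factors 1.73, 0.837 and 1.11. The rise of L2 was thus not called on these scales. As shares without rRNA the ratios were 2.41 for L2, which passed, and 1.15 for MIR and 1.51 for the sum, which did not. From oocyte to blastocyst L2 had 2.46 among transposon counts and 2.14 with size factors, with overlapping runs, and MIR 0.890 with size factors. The sum in this comparison was 1.47 among transposon counts, 1.77 without rRNA, 1.28 with size factors, 1.27 in the shared sequencing run and 1.87 among transposon counts without oocyte run 1.1, none of which passed. With a fold limit of 1.5 the sum passed from oocyte to 2-cell at 1.88. RTE from 2-cell to 8-cell was 0.539 with size factors and did not pass. RTE among transposon counts without oocyte run 1.1 was 0.349 from oocyte to 2-cell and 0.332 from oocyte to blastocyst. L2 from 2-cell to 8-cell was 0.656 with pooled counts and 0.620 in the shared sequencing run, where CR1 was 2.13, in the opposite direction to its ratio of 0.999 over all runs. In the sequencing run of oocyte and blastocyst, ratios were 0.241 for CR1, 0.269 for RTE and 0.917 for MIR, those of CR1 and RTE resting mainly on oocyte run 2. The cause was not tested in any of these.

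Leaving out 1 run at a time gave, for RTE, 0.423 to 1.12 from oocyte to 2-cell, 0.387 to 0.609 from 2-cell to 8-cell, 1.43 to 2.25 from 8-cell to blastocyst and 0.368 to 0.973 from oocyte to blastocyst. The sum ranged from 1.60 to 2.16 from oocyte to 2-cell and from 1.60 to 2.53 from oocyte to blastocyst. The ratio of MIR to B2 ranged from 0.442 to 0.844 from oocyte to 2-cell and from 1.40 to 2.03 from 8-cell to blastocyst, that of MIR to B4 from 0.462 to 0.632 and from 1.36 to 2.16, and that of L2 to L1 from 0.493 to 0.876 from 8-cell to blastocyst. L2 kept its rise in each case, at 2.89 to 4.04 from oocyte to 2-cell and 2.66 to 4.93 from oocyte to blastocyst, and MIR to L2 kept its fall, at 0.319 to 0.490 and 0.303 to 0.430. With only families of at least 100 counts over both stages, 23.7% rose from oocyte to 2-cell and 16.7% from oocyte to blastocyst, 5.56% fell from 2-cell to 8-cell, and from 8-cell to blastocyst 3.33% rose and 6.67% fell. The share of all families that pass with a run left out was not computed. Depth limits RTE most, with 96 counts over all blastocyst runs.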

Other observations

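Oocyte run 1.1, on which the picture of L2 and RTE among transposon counts rests, stood furthest from the embryo runs in how the table relates to the read files. Its table column held 563012 counts and its read file 272199 placements, or 2.07 counts per placement, against 1.40 in oocyte run 1.2, 0.797 in oocyte run 2 and values between 0.947 and 1.16 in the 8 embryo runs. Oocyte run 1.1 also had the highest share of rRNA, at 44.9%, and the lowest CR1 and RTE shares of the oocyte. In counts per placement, however, all oocyte runs lay outside the range of the embryo runs. What this does to comparisons with the oocyte was not tested.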
